A study of Mus musculus with 2 samples.

Results

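Cytochrome P450 (*Cyp*) genes were examined one by one in single-cell RNA-Seq of mouse liver, leaving out the bile acid, zonation and *Cyp4a* genes that are commonly used as readouts of miR-33 or of liver zones. The members were all genes whose symbol had the form of a P450 gene name (*Cyp*, a family number, a subfamily letter and a gene number), without *Cyp7a1*, *Cyp7b1*, *Cyp8b1*, *Cyp27a1*, *Cyp1a2*, *Cyp2e1*, *Cyp2f2*, *Cyp4a10* and *Cyp4a14*. This gave 85 of the 32285 genes in the count tables, in 33 subfamilies, and all 85 were protein coding. The study prepared 1 library from WT littermates and 1 from hepatocyte-specific miR-33–knockout (*HKO*) mice, in which a Cre driven by the albumin promoter removes a loxP-flanked miR-33. Mice of both genotypes were 8 weeks old when the choline-deficient, high-fat diet (CD-HFD) began and were fed it for 6 months, so both libraries came from livers with steatohepatitis and neither from a healthy liver. Each library was made from a pool of 3 livers, with hepatocytes and sorted nonparenchymal cells recombined in equal numbers, and therefore no replicate and no *P* value stood behind a difference between genotypes.

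P450 enzymes are heme proteins of the endoplasmic reticulum or the mitochondria that insert 1 atom of oxygen into their substrate, taking electrons from a reductase or a ferredoxin. Subfamilies 2a to 2d and 3a carry out much of the oxidation of drugs, steroids and bile acids in hepatocytes, subfamilies 2c and 2j also make epoxides from arachidonic acid, and family 4 hydroxylates fatty acids and eicosanoids at or near the end of the chain. Many drug-metabolizing P450 genes are expressed most strongly around the central vein, where Wnt signals are strong, and many are induced through the xenobiotic receptors CAR (*Nr1i3*) and PXR (*Nr1i2*). Families 11, 17, 19 and 21 make steroid hormones, and families 24, 26, 27, 39 and 46 act on vitamin D, retinoic acid and oxysterols.

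The WT library held 130451427 unique molecular identifiers (UMIs, single counted mRNA molecules) in 30078 barcodes and the *HKO* library held 52563185 in 20000. After filtering, 1930 WT and 1656 *HKO* barcodes were called hepatocyte-like: a barcode needed 5000 UMIs or more, had to exceed the most frequent depth of that library by a factor of 2, and had to end in no cluster named for another cell type. Clusters first named for another cell type were clustered again, and barcodes whose new cluster had no such name were counted. Among them were 62 WT and 63 *HKO* barcodes of a cluster first named endothelial and stellate. The median barcode of this class held 20161 UMIs in WT and 10698 in *HKO*, and their median mitochondrial share was 12.04% and 13.5%. Albumin (*Alb*) reached 36381 CPM (UMIs of the gene per 1000000 UMIs of the same barcodes) in WT and 27723 in *HKO*. RNA free in the suspension was estimated from the shallower barcodes, below that factor, which held 34751 and 30095 CPM of *Alb*, and it accounted for an estimated 9.94% of hepatocyte-like UMIs in WT and 6.44% in *HKO*. Clusters that came at least 90% from 1 library held part of the hepatocyte-like barcodes, the largest with 247 from WT and 2 from *HKO*, and the results were also computed without them, a choice made after seeing the data. Mature miR-33 is not counted by this polyadenylated 3′ assay, so the deletion could not be checked. *Srebf2*, whose intron holds miR-33, was at 24.98 CPM in WT and 20.03 in *HKO*.

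The sequence that miR-33 uses to find its targets was matched in the annotated 3′ ends of 3 P450 mRNAs. The mature sequence of miR-33-5p in RefSeq (GRCm38.p6, chr15:82198127-82198147, plus strand) is shown with its seed, bases 2 to 8, in capitals, followed by the 3 members whose annotated 3′ untranslated region held a seed match, each with the match in capitals. A match was the run CAATGCAA, or the same run without its last or without its first letter, read on the mRNA strand.
mmu-miR-33-5p: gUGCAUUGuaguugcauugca
Cyp4f17, chr17:32529161-32529167, plus strand: ttgagcaggagaAATGCAAcgtttact
Cyp2c38, chr19:39390507-39390513, minus strand: agaagcatatagAATGCAAgaagaaat
Cyp1b1, chr17:79709250-79709256, minus strand: ccaaatagtattCAATGCAtataaaaa
These coordinates are of the match in GRCm38 (GENCODE M21), and none of the 3 was the longest form of match. A match was found in 3 of the 79 members with an annotated 3′ untranslated region (3.80%) and in 3130 of 20869 genes overall (14.998%), but the median region was 411 bases long for members and 966 for all genes. *Cyp4f17* was at 15.8 CPM in WT and 13.2 in *HKO* hepatocyte-like barcodes and *Cyp2c38* at 48.0 and 71.9, while *Cyp1b1* had no UMI there in either library, which allows 3 UMIs per library.

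The region around the RefSeq transcription start, 250 bases before to 50 bases after it, is shown for 3 members on which the results turn: *Cyp2c70*, the expressed member with the lowest *HKO* to WT ratio, *Cyp3a11*, the most abundant member, and *Cyp2c38*, the expressed member with the steepest pericentral gradient. All coordinates are in GRCm38.p6, and capitals mark matches, on either strand, to TATAAA (the core promoter element of that type), AGGTCA (a motif of nuclear receptors), CTTTGAT (a motif of the Wnt effectors TCF/LEF), CCAAT (a motif of the factor NF-Y) or CAAAGTCCA (an HNF4-type motif). No marked match overlapped another.
Cyp2c70, chr19:40187237-40187536, minus strand: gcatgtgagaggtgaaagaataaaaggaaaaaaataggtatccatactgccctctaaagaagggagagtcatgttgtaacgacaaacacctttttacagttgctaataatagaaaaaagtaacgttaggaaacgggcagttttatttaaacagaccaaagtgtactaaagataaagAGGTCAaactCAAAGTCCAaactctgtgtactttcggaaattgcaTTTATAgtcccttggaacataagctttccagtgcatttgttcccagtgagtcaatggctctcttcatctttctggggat
Cyp3a11, chr5:145879805-145880104, minus strand: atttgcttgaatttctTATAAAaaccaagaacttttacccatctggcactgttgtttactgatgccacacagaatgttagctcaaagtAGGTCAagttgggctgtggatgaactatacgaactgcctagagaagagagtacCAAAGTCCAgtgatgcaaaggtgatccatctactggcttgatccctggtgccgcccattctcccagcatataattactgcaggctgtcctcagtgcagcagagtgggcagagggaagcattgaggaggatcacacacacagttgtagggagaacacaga
Cyp2c38, chr19:39463026-39463325, minus strand: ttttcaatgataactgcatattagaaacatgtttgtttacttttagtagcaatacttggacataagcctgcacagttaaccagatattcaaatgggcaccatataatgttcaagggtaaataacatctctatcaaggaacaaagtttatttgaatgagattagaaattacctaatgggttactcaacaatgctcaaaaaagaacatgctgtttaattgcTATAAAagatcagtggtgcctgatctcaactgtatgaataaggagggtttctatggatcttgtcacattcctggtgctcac
The RefSeq table held a promoter for 68 of the 85 members. Among the 26 expressed members with one, TATAAA occurred in 50.0% (14.2% of all 27025 promoters), AGGTCA in 34.6% (16.0%), CCAAT in 61.5% (37.9%), CAAAGTCCA in 15.4% (0.477%) and CTTTGAT in 3.85% (3.72%). Both *Cyp2c70* and *Cyp3a11* held AGGTCA and CAAAGTCCA, whereas *Cyp2c38* held TATAAA alone. Members of a subfamily are related genes, and how alike their promoters are was not compared. A match is not evidence of binding.

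Together the 85 members made up 5755 CPM of the WT hepatocyte-like UMIs (95% CI 5734 to 5776) and 5497 CPM in *HKO* (5466 to 5529), a ratio of 0.955 (0.949 to 0.962). The 9 P450 genes outside the set summed to 5452 CPM in WT and 5860 in *HKO*. All intervals given are exact and cover the counting of UMIs only, not the difference between animals or preparations. Levels of different genes are set side by side as UMI counts. Differences between genes in capture, in intronic reads or in reads shared with related genes were not corrected.

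Of the 85 members, 34 had a mean of at least 10 CPM over both libraries in hepatocyte-like barcodes and were compared further, in 12 subfamilies. The other 51 were below it, of which 7 had no UMI in the whole series (*Cyp24a1*, *Cyp4a29*, *Cyp2w1*, *Cyp3a16*, *Cyp2b19*, *Cyp11b2* and *Cyp2c66*) and 14 had 1 to 9. *Cyp17a1* (11.6 CPM) and *Cyp2j9* (11.4) lay just inside the limit, and *Cyp2b13* (9.57) and *Cyp4a32* (9.23) just outside. Only the 34 are covered by the counts between genotypes and zones.

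Members of the 3a and 2d subfamilies were the most abundant. *Cyp3a11*, the main bile acid and drug hydroxylase of the 3a subfamily in mouse liver, was at 657 CPM in WT and 1053 in *HKO*, and its close relative *Cyp3a25* at 588 and 751. The 2d genes *Cyp2d26*, *Cyp2d10* and *Cyp2d9*, relatives of the human drug-oxidizing enzyme CYP2D6, were at 622, 459 and 299 CPM in WT and at 452, 315 and 276 in *HKO*. *Cyp2j5*, an arachidonic acid epoxygenase, followed at 429 and 331 CPM, and *Cyp2a12*, a steroid and bile acid hydroxylase, at 350 and 243. *Cyp4v3*, a fatty acid hydroxylase, was at 210 CPM in WT and 205 in *HKO*, next to the drug- and arachidonate-oxidizing *Cyp2c29* at 193 and 207. Of these 2, the intervals overlapped in *HKO*. The order of the genes differed between libraries, with *Cyp2c70* at 290 CPM in WT, close to *Cyp2d9*, and at 109 in *HKO*, below *Cyp2c50* at 121. The remaining members among the 15 most abundant were *Cyp3a13* (152 and 232 CPM), *Cyp2c50* (172 and 121), *Cyp2c23* (148 and 141), *Cyp2d22* (113 and 90.3) and *Cyp2b9* (100.1 and 96.7).

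**Figure D1:**
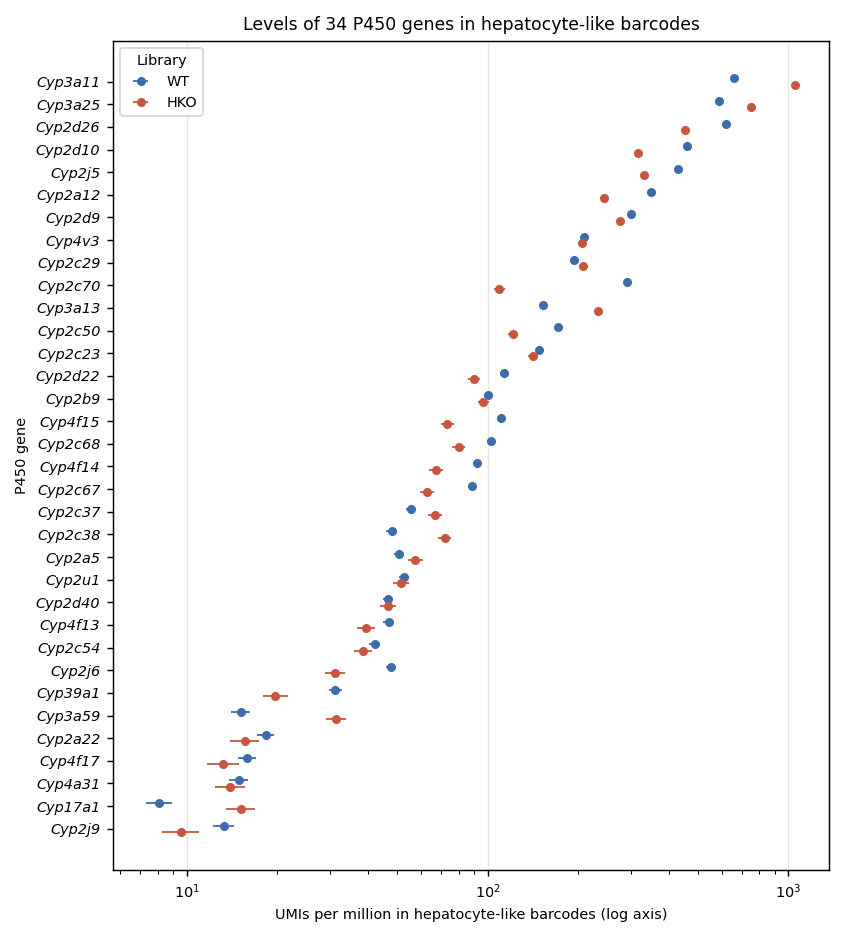
Levels of the 34 expressed P450 genes in hepatocyte-like barcodes, in CPM on a log axis, with 1 point per library and exact 95% counting intervals. *Cyp3a11* is highest in both libraries, at 657 in WT and 1053 in *HKO*, and the gap between the libraries is widest for *Cyp2c70*, at 290 and 109.

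By subfamily, the 3a genes were the only expressed subfamily with more than 1 member whose sum was higher in *HKO*. The 7 genes of subfamily 3a summed to 1412 CPM in WT and 2068 in *HKO* (ratio 1.46, 95% CI 1.45 to 1.48), and their share of all member UMIs was 24.5% and 37.6%. The 2d sum was 1543 CPM in WT and 1184 in *HKO* (0.768), the 2c sum 1143 and 903 (0.790), the 2j sum 491 and 373 (0.760), the 2a sum 423 and 324 (0.767) and the 4f sum 268 and 195 (0.725). Within 2c the genes moved in both directions, since *Cyp2c70* alone went from 290 to 109 CPM while *Cyp2c38*, *Cyp2c37* and *Cyp2c29* were above WT. Sums of 2b (112 and 109 CPM) and 4a (24.7 and 22.6) and the single genes *Cyp4v3* and *Cyp2u1* lay between 0.914 and 0.980 times WT.

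At least 1.5-fold higher in *HKO* were 4 of the 34 members, where 2.33% of all 7095 genes at this level were, and at least 1.5-fold lower were 4, where 4.33% of all genes were. The median log2 ratio was −0.18 for the members and −0.01 for all genes, with 10 members above WT and 24 below. At 2-fold, 1 member was higher (0.338% of all genes) and 1 lower (0.846%). Without the clusters of 1 library, 3 members were higher and 4 lower. The count of lower members was 2 with barcodes weighted equally and 9 as the mean of the log2 ratios within the 3 zones described further on. Matching counts over all genes are not given for these settings.

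All 4 expressed 3a genes were above WT. *Cyp3a59* was at 15.1 CPM in WT and 31.4 in *HKO* (ratio 2.07, 95% CI 1.86 to 2.31), *Cyp3a11* differed by 1.60-fold (1.58 to 1.63), *Cyp3a13* by 1.53-fold (1.47 to 1.58) and *Cyp3a25* by 1.28-fold (1.25 to 1.30). The 4 genes lie on chromosome 5, with *Cyp3a11* (chr5:145854426-145879964), *Cyp3a25* (chr5:145977194-146009618) and *Cyp3a59* (chr5:146079257-146113287) in 1 cluster and *Cyp3a13* (chr5:137892932-137921619) apart from it. In the free RNA the same 4 were also above WT, for example *Cyp3a11* at 747 CPM in WT and 1365 in *HKO*. *Cyp3a13* was past 1.5-fold in 5 of 9 alternative settings, in a range of 1.45 to 1.55, and *Cyp3a11* in all 9. The other 3 members of the subfamily, *Cyp3a57*, *Cyp3a44* and *Cyp3a16*, had at most 28 UMIs in the series.

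*Cyp17a1*, which makes androgen precursors from progestins, was the only other member at least 1.5-fold higher, at 8.06 CPM (396 UMIs) in WT and 15.1 (314 UMIs) in *HKO* (1.87, 1.61 to 2.17). Its WT level was under 10 CPM, so it entered the comparison through the library in which it was high, while *Cyp26a1*, at 10.7 CPM in WT and 4.66 in *HKO*, stayed out by the same limit. *Cyp2c38* came just short of the limit, at 48.0 and 71.9 CPM (1.499, 1.40 to 1.60). Its ratio depended on the zones, since the mean of its log2 ratios within the 3 zones, described further on, was −0.46.

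*Cyp2c70* had the lowest ratio of the 34 expressed members over all hepatocyte-like barcodes, although *Cyp2c50* was lower as the mean over the zones (0.363). This enzyme makes muricholic acids, bile acids typical of mice and rats, and its gene lies at chr19:40153353-40187333. It was at 290 CPM (14252 UMIs) in WT and at 109 (2278 UMIs) in *HKO*, a ratio of 0.377 (0.361 to 0.394). The free RNA held 299 CPM of *Cyp2c70* in WT and 94.2 in *HKO*, a gap of about the same size in barcodes that were not used for the comparison but came from the same 2 suspensions. No barcode gave more than 1.07% of its UMIs. Its ratio was 0.403 in the periportal, 0.370 in the middle and 0.356 in the pericentral zone of hepatocyte-like barcodes.

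The other 3 members at least 1.5-fold lower had different roles. *Cyp39a1*, which hydroxylates oxysterols, was at 31.1 CPM in WT and 19.7 in *HKO* (0.632, 0.566 to 0.706). *Cyp2j6*, an epoxygenase, was at 47.7 and 31.2 CPM (0.654, 0.598 to 0.713), and *Cyp4f15*, of the leukotriene and fatty acid hydroxylases, at 111 and 73.4 (0.664, 0.627 to 0.703). *Cyp4f15* was past 1.5-fold in 4 of 9 alternative settings, in a range of 0.634 to 0.700. Just under the limit were *Cyp2d10* (0.688, 0.669 to 0.707) and *Cyp2a12* (0.696, 0.674 to 0.718). Without the clusters of 1 library these 2 were at 0.805 and 0.786. Among the remaining 2c genes the ratio ran from 0.706 for *Cyp2c50* to 1.21 for *Cyp2c37*. As the mean over the zones, *Cyp2c50* was at 0.363 and *Cyp2c29*, which was at 1.07 over all barcodes, at 0.612. All 4 expressed 4f genes and all 3 expressed 2j genes were below WT, as were 24 of the 34 members and 3618 of all 7095 genes. The ratio in the free RNA lay on the same side of 1 as that in hepatocyte-like barcodes for 29 of the 34 members. The same share over all genes is not given. The free RNA came from the same suspensions and is no independent measurement.

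**Figure D2:**
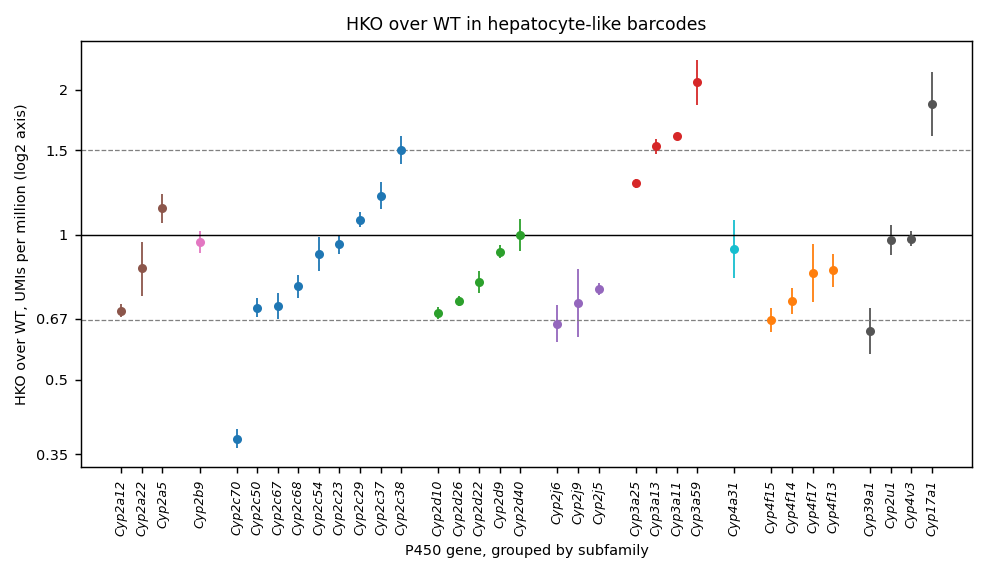
Ratio of *HKO* to WT for each of the 34 expressed P450 genes, grouped by subfamily, on a log axis, with exact 95% counting intervals and lines at 1 and at 1.5-fold in each direction. The 4 genes of subfamily 3a lie between 1.28 and 2.07, and *Cyp2c70* at 0.377 lies lowest.

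Hepatocytes along the axis from the portal to the central vein were ordered by 10 pericentral and 10 periportal landmark genes, none of them a member, and cut into 3 equal parts in each library by itself. The landmarks *Cyp2e1*, *Cyp1a2* and *Cyp2f2* are P450 genes outside the set. In a run without these 3, 23 of 26 values were classed as the same, 3 as moved and 0 as reversed. Each landmark, with itself left out of the score, lay on its own side in both libraries, with median pericentral to periportal ratios of 10.4 in WT and 27.1 in *HKO* for the pericentral landmarks and 0.487 and 0.302 for the periportal ones. Gradients were thus steeper in *HKO* for genes outside the set as well.

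Of the 34 members, 13 were at least 1.5-fold higher in the pericentral than in the periportal zone of both libraries, where 4.1% of all genes were, and 4 were at least 1.5-fold lower in both, where 1.68% of all genes were. The pericentral members were 6 of the 9 expressed 2c genes, *Cyp2a5* and *Cyp2a22*, *Cyp2d9* and *Cyp2d40*, *Cyp3a11* and *Cyp3a59*, and *Cyp2b9*. The periportal members were *Cyp2c23*, *Cyp2u1*, *Cyp39a1* and *Cyp17a1*, each from a different subfamily. No member was zoned in opposite directions past 1.5-fold in the 2 libraries.

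The steepest gradients were in subfamilies 2c and 2a. *Cyp2c38* was at 6.14, 18.9 and 120 CPM in the periportal, middle and pericentral zones of WT (ratio 19.6, 95% CI 16.0 to 24.2) and at 1.93, 13.7 and 202 in *HKO* (104, 63.1 to 187). *Cyp2a5*, the coumarin hydroxylase of mouse liver, was at 12.9, 27.3 and 113 CPM in WT (8.76) and at 2.58, 8.31 and 163 in *HKO* (63.1). *Cyp2c29* was at 44.3, 108 and 430 CPM in WT (9.72) and at 14.05, 60.8 and 554 in *HKO* (39.4). Over the 8 alternative settings, 7 of which gave an *HKO* value for *Cyp2c38* and *Cyp2a5*, the ratio of *Cyp2c38* ran from 7.89 to 38.04 in WT and from 32.3 to 124 in *HKO*, that of *Cyp2a5* from 5.93 to 41.8 and from 50.4 to 132, and that of *Cyp2c29* from 5.33 to 18.1 and from 33.8 to 147. For each of these genes, the periportal level as reported was lower and the pericentral level higher in *HKO* than in WT. The related *Cyp2c37* (4.50 in WT and 40.8 in *HKO*), *Cyp2c50* (4.68 and 27.7) and *Cyp2c54* (3.47 and 16.8) had the same order.

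Not all members of 1 cluster were zoned. *Cyp2c70* was nearly even across the zones, at 290, 300.2 and 280 CPM in WT and 117, 111 and 99.8 in *HKO*, although *Cyp2c50*, from the same cluster (chr19:40089688-40113950), was steep in both libraries. *Cyp2c68* was at 1.10 in WT and 1.29 in *HKO*, with the limit that 28.0% of the 90-base runs in its last 500 bases also occur in other 2c genes, so reads may be shared with them. The same holds for *Cyp2c67*, counted among the pericentral members, at 23.1%. *Cyp2c23*, an epoxygenase set apart from the main 2c cluster, ran the other way, at 202, 140 and 102 CPM in WT (0.507, 0.477 to 0.538) and 208, 130 and 76.2 in *HKO* (0.367, 0.332 to 0.405).

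The other 3 periportal members had ratios of 0.429 to 0.593 over both libraries. *Cyp17a1* had a ratio of 0.429 in WT and 0.448 in *HKO*, *Cyp39a1* 0.540 and 0.507, and *Cyp2u1*, a fatty acid hydroxylase, 0.593 and 0.486. *Cyp3a13* (0.728 and 0.454) and *Cyp4a31* (0.688 and 0.572) were past 1.5-fold in *HKO* only, and the difference between libraries was not tested. Within subfamily 3a, therefore, *Cyp3a11* (6.56 and 4.29) and *Cyp3a59* (1.60 and 1.65) were pericentral in both libraries, *Cyp3a25* was close to even (1.16 and 1.19), and *Cyp3a13* lay toward the portal side.

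**Figure D3:**
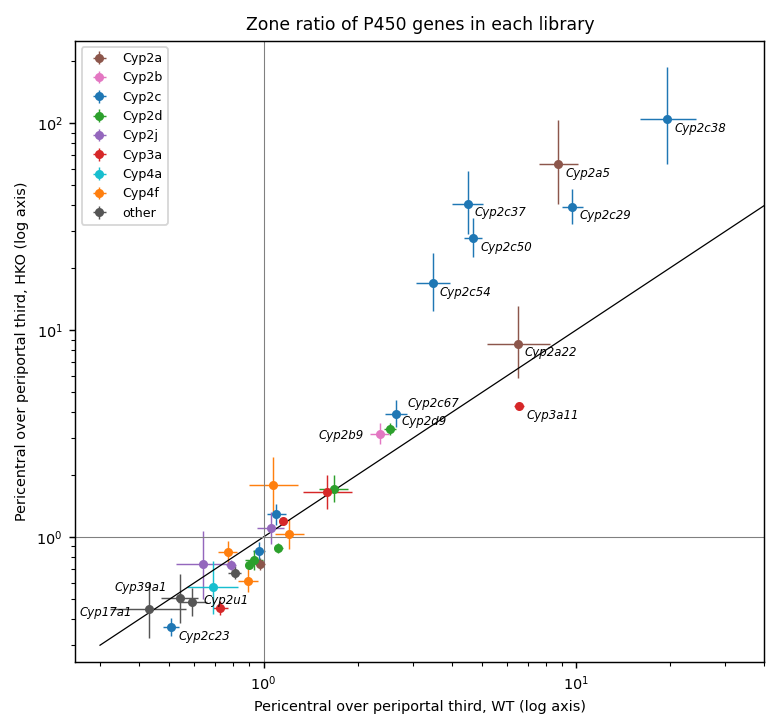
Pericentral to periportal ratio of each of the 34 expressed P450 genes in WT (horizontal) and *HKO* (vertical), both on log axes, with exact 95% counting intervals and the line of equal ratios. The pericentral 2c and 2a genes lie above the line, as *Cyp2c38* at 19.6 in WT and 104 in *HKO*, while *Cyp3a11* lies below it at 6.56 and 4.29.

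Zone ratios were farther from 1 in *HKO* than in WT for 29 of the 34 members, and for 12 of the 13 pericentral ones, with *Cyp3a11* the exception. They were farther from 1 in *HKO* for 4430 of all 7095 genes too. The share of free RNA differed by zone and library, from 9.67% to 10.1% of UMIs in WT and from 5.76% to 7.28% in *HKO*, and free RNA flattens any gradient. With the expected free RNA subtracted, the ratio of *Cyp2c29* became 14.9 in WT and 147 in *HKO*, that of *Cyp2c50* 6.43 and 70.2, and that of *Cyp3a11* 10.0 and 4.94. For *Cyp2c37* the subtraction left almost no periportal *HKO* signal (2436), and for *Cyp2c38* and *Cyp2a5* none, so subtracted ratios of such steep genes are unstable. The ratio of *Cyp2c38* was, on the log2 scale, 4.29 in WT and 6.71 in *HKO* as reported, 2.98 and 6.33 with barcodes thinned to 5000 UMIs, 4.62 and 6.55 in barcodes of at least 10000 UMIs, and 3.94 and 5.01 with the zone score made from summed landmarks. It was thus higher in *HKO* under each of these settings, by an amount that differed between them. The part of the number of hepatocytes in each zone was not tested.

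Read within a zone, fewer members were lower in *HKO* near the central vein than elsewhere, and so were fewer of all genes. In the periportal zone 12 members were at least 1.5-fold lower in *HKO* (8.51% of all genes) and 4 at least 1.5-fold higher (2.35%). The middle zone had 12 lower (9.16%) and 4 higher (5.3%), and the pericentral zone 5 lower (4.1%) and 5 higher (3.57%). *Cyp2c50*, *Cyp2a5* and *Cyp2c37* were at 0.175, 0.200 and 0.200 times WT in the periportal zone and at 1.04, 1.44 and 1.81 times WT in the pericentral zone. *Cyp3a11* had the opposite order, with ratios of 2.45, 1.28 and 1.60 from the periportal to the pericentral zone, and *Cyp3a13* was at 1.74, 1.62 and 1.08. *Cyp3a59* (2.00, 2.19 and 2.05) and *Cyp17a1* (1.76, 1.99 and 1.84) were higher by nearly the same factor in each zone, and *Cyp39a1* was lower in each (0.597, 0.724 and 0.560). The zones are equal parts of each library, so a shift in the makeup of the hepatocytes and a change within them cannot be told apart.

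**Figure D4:**
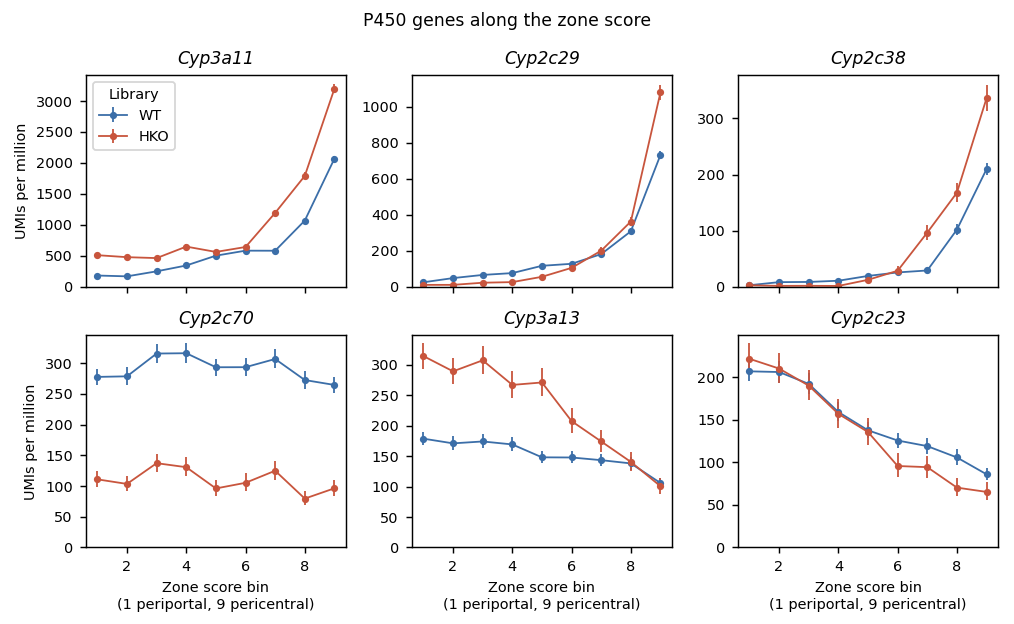
Levels of 6 P450 genes, in CPM, across 9 equal bins of the zone score from periportal (1) to pericentral (9), with 1 line per library and exact 95% counting intervals. *Cyp3a11* climbs from 181 to 2069 in WT and from 510 to 3199 in *HKO*, *Cyp2c29* starts lower and ends higher in *HKO*, *Cyp2c38* starts at 2.69 in WT and 2.57 in *HKO* and ends at 209.6 and 336, *Cyp2c70* is flat and lower in *HKO*, and *Cyp3a13* and *Cyp2c23* descend.

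Grouped by what is known to regulate them or by substrate, the members gave the following counts, to be read against the share of all genes called, 2.33% at least 1.5-fold higher, 4.33% at least 1.5-fold lower, 4.1% pericentral and 1.68% periportal. Of 12 genes known as targets of CAR or PXR, 9 were expressed, 2 of these were at least 1.5-fold higher (*Cyp3a11* and *Cyp3a13*), none was lower, and 8 were pericentral in both libraries, with a median log2 ratio of 0.18. The classical CAR target *Cyp2b10* was at 2.67 CPM (131 UMIs) in WT and 2.02 (42 UMIs) in *HKO*, under the limit for a comparison, and *Cyp2c55* at 1.24 and 1.01. The 3 genes induced by the aryl hydrocarbon receptor were scarcely found, with 34 UMIs of *Cyp1a1*, 6 of *Cyp1b1* and 9 of *Cyp2s1* in the series. Of 15 fatty acid hydroxylases of family 4 and *Cyp2u1*, 7 were expressed and all 7 were below WT, as were 24 of the 34 members and 3618 of all 7095 genes, and 1 of them was past 1.5-fold (*Cyp4f15*, 4.33% of all genes), with a median of −0.24. The counting interval held 1 for *Cyp4v3* (0.980, 0.946 to 1.016), *Cyp2u1* (0.977, 0.909 to 1.05) and *Cyp4a31* (0.936, 0.814 to 1.07).

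Of 11 arachidonic acid epoxygenases, 8 were expressed, 1 was at least 1.5-fold lower (*Cyp2j6*, 4.33% of all genes), none was higher (2.33%), and 5 were pericentral (4.1%), with a median of −0.25. Genes known to be higher in male liver (4, all expressed) had a median of −0.08 with none past 1.5-fold in either direction. Among 11 genes known to be higher in female liver, 4 were expressed, 1 was higher (*Cyp17a1*) and 1 lower (*Cyp39a1*), with a median of −0.14. These mice were male, and the female-biased *Cyp2b13* still gave 442 UMIs in WT and 211 in *HKO* hepatocyte-like barcodes. A gene may stand in more than 1 of these lists, and across all genes the median was −0.01.

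Members under the limit included several with well-known roles. *Cyp26a1*, the retinoic acid hydroxylase of hepatocytes, was at 10.7 CPM (525 UMIs) in WT and 4.66 (97 UMIs) in *HKO*, a ratio of 0.436 (0.347 to 0.542), and its level was higher in the pericentral zone by 1.73-fold in WT and 1.77-fold in *HKO*. *Cyp2r1*, which starts the activation of vitamin D, was at 6.23 and 4.71 CPM, and *Cyp46a1*, which hydroxylates cholesterol, at 6.31 and 6.58. Of the 6 steroid hormone genes, *Cyp17a1* alone was expressed above the limit, with *Cyp21a1* at 0.733 and 0.864 CPM and *Cyp11a1*, *Cyp11b1*, *Cyp11b2* and *Cyp19a1* at no more than 1 UMI in hepatocyte-like barcodes of either library. Of the 8 sterol, vitamin D and retinoid genes, *Cyp39a1* alone passed it. The pericentral to periportal ratio of *Cyp2b13* was 22.7 in WT and 74.7 in *HKO* (25.2 to 365), the latter against 3 periportal UMIs. *Cyp2a4* was at 3.99 CPM in WT and 7.83 in *HKO* (1.96, 1.58 to 2.43), with 26.02% of its WT UMIs in 1 barcode and 10.5% of the 90-base runs of its end shared with other genes, among them *Cyp2a5*. Its zone ratio was 3.497 in WT and 27.6 in *HKO* (11.5 to 86.4), the latter against 5 periportal UMIs. The other listed genes below the limit were *Cyp4a32* (9.81 and 8.64 CPM, with 47.0% of the 90-base runs of its end shared with other 4a genes), *Cyp2c39* (1.83 and 2.30) and *Cyp2c40* (0.937 and 0.576, with 49.9% shared), and *Cyp2c69*, *Cyp3a44*, *Cyp4f39* and *Cyp4x1*, each with 15 to 35 UMIs in the series.

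Outside hepatocytes, 7 members were at least 2-fold above their hepatocyte-like level in a class of both libraries with at least 10 UMIs, in 26 pairs of gene and class. These classes are small, from 7 WT neutrophil-like to 638 *HKO* T- and NK-like barcodes, and the 6 hepatocyte markers were detected in each of these classes, at 3986 to 55880 CPM in sum. The share of all genes that met the same rule was 37.8% in endothelial-like, 43.5% in mixed endothelial- and stellate-like, 13.2% in stellate-like, 38.1% in macrophage-like, 37.3% in monocyte- and dendritic-like, 20.8% in neutrophil-like, 36.6% in T- and NK-like, 30.3% in B- and plasma-like and 30.7% in cholangiocyte-like barcodes. In none of these classes did more than 5 members do so, of 18 to 36 with at least 10 UMIs.

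Retinoic acid–degrading *Cyp26b1* and *Cyp4b1*, a hydroxylase of fatty acids and small aromatic compounds, marked the endothelial-like barcodes. *Cyp26b1* was at 614 CPM there in WT (305 UMIs in 65 barcodes) and 417 in *HKO* (211 UMIs in 130 barcodes), against 2.63 and 1.49 in hepatocyte-like barcodes, and the *HKO* to WT ratio was 0.680 (0.568 to 0.813). *Cyp4b1* was at 302 and 309 CPM (1.02, 0.812 to 1.29), against 0.876 and 0.480. The UMIs of *Cyp26b1* came from 45 WT and 68 *HKO* barcodes, and no test between the libraries or the genes was made. Barcodes with markers of both endothelial and stellate cells held 380 and 265 CPM of *Cyp26b1* and 119 and 108 of *Cyp4b1*. Their 8 endothelial markers summed to 3488 and 4965 CPM, against 8376 and 11778 in the endothelial-like class. All 7 macrophage markers were detected in these mixed barcodes too, at 4072 and 5432.5 CPM in sum. Macrophage-like barcodes, with 62.2 and 76.1 CPM of *Cyp26b1*, held 1513 and 1505 CPM of the 8 endothelial markers, and all 8 were detected in both libraries. In stellate-like barcodes *Cyp26b1* was at 115 and 69.2 CPM, but 21 of the 22 WT UMIs came from 1 barcode, and their 6 hepatocyte markers, at 55880 and 37254 CPM, were close to those of hepatocyte-like barcodes (64153 and 51990).

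*Cyp20a1*, an orphan enzyme of unknown substrate, was highest in the mixed endothelial- and stellate-like barcodes, at 149 CPM in WT and 124 in *HKO*, with 34.2 and 43.5 in endothelial-like and 8.57 and 6.96 in hepatocyte-like ones. It was also called in stellate-like (41.8 and 41.5), monocyte- and dendritic-like (28.6 and 30.3) and macrophage-like barcodes (24.9 and 27.4). Of its 8 WT UMIs in stellate-like barcodes, 7 came from 1 barcode. In the mixed barcodes the 8 stellate markers summed to 10645 and 10799 CPM. The 7 macrophage markers summed to 4072 and 5432.5 CPM there, and the 8 endothelial markers to 3488 and 4965. *Cyp4f18*, which hydroxylates leukotriene B4 in leukocytes, was almost absent from hepatocyte-like barcodes (0.204 and 0.0960 CPM) and was found in neutrophil-like (55.4 and 143 CPM, from 4 and 12 UMIs), B- and plasma-like (35.4 and 63.5), monocyte- and dendritic-like (51.6 and 49.8) and macrophage-like barcodes (40.9 and 37.7). The mixed endothelial- and stellate-like barcodes also held 22.8 and 13.6 CPM of *Cyp4f18*. *Cyp4f16*, at 2.32 and 1.06 CPM in hepatocyte-like barcodes, was above that level in monocyte- and dendritic-like (22.9 and 30.3), mixed endothelial- and stellate-like (20.2 and 17.5), macrophage-like (14.2 and 10.97) and T- and NK-like ones (6.18 and 6.35), each from 6 to 18 UMIs a library. It was not called in neutrophil- or B- and plasma-like barcodes.

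*Cyp39a1* met the rule in the cholangiocyte-like class, at 72.1 and 78.6 CPM from 17 and 20 UMIs in 12 and 27 barcodes, but not after subtraction of hepatocyte RNA scaled to *Alb*. *Cyp11a1*, which starts steroid synthesis from cholesterol, met it in the neutrophil-like class through 19 UMIs in WT, 14 of them in 1 barcode, and 1 UMI in *HKO*.

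The genes that serve P450 enzymes were given beside the members. Of 19 electron donors and heme enzymes, 16 were expressed, none was at least 1.5-fold higher (2.33% of all genes) and 1 was lower (4.33%), counts near the background. This gene was *Uros*, a heme synthesis enzyme, at 13.5 CPM in WT and 8.36 in *HKO*. The median log2 ratio of the list was 0.07. The highest ratios were those of *Blvrb*, which reduces biliverdin (107 and 140 CPM, 1.32), and of *Alas1*, which sets the rate of heme synthesis (155 and 191 CPM, 1.23), and the second lowest was that of the electron carrier *Cyb5b* (140 and 109, 0.776). P450 reductase, *Por*, was at 178 and 210 CPM (1.18).

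Of 25 receptors and transcription factors known to control P450 genes, 22 were expressed, with 2 higher (2.33% of all genes) and 1 lower (4.33%). At least 1.5-fold higher were *Onecut1*, also called HNF6 (12.7 CPM in WT and 57.9 in *HKO*, 4.54-fold, 4.12 to 5.01), and *Ppara*, the fatty acid receptor (326 and 491, 1.51-fold), and at least 1.5-fold lower was the repressor *Bcl6* (66.95 and 36.3, 0.542). *Cebpa* had the second lowest ratio (174 and 125, 0.717). The xenobiotic receptors *Nr1i2* (76.8 and 68.6 CPM, 0.893) and *Nr1i3* (137 and 110, 0.807) were below WT. Of the 9 expressed genes listed as their targets, 6 were above WT, among them *Cyp3a11*, and 3 below. A link to the receptors was not tested. The median for this list was −0.07.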

How the data were processed

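Single-cell suspensions were processed with a droplet-based 3′ kit that counts polyadenylated mRNA. The authors deposited UMI counts per gene and barcode, not normalized, for both libraries. The file headers name Cell Ranger 7.1.0, and the submitters' processing notes name Cell Ranger, R 3.0, Seurat 3 and the build mm10. The annotation, the treatment of intronic reads and the choice of barcodes are not given in the sources used here. WT barcode names were not analysed here, so barcodes shared between libraries were not counted.

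Barcodes with at least 500 UMIs, 300 genes and at most 50% mitochondrial UMIs were kept (29620 in WT and 18247 in HKO). Doublets were scored with Scrublet in each library. Its automatic threshold marked 0 barcodes, so the highest-scoring barcodes were left out at a rate that rises with the number of barcodes kept (7019 or 23.7% in WT and 2664 or 14.6% in HKO). Clusters were made with scanpy 1.11.5 (2000 variable genes, 30 components, 15 neighbours, Leiden resolution 1) with a repeat on the clusters named for other cell types, and named from at least 3 markers, each detected in 10% of barcodes and 2-fold enriched.

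UMIs were summed over the barcodes of a class and divided by the class total and scaled to 1000000 (CPM). Intervals for levels are exact Poisson and for ratios exact conditional, at 95%, and cover counting error only. With 1 library per genotype no test was made. A ratio was called at 1.5-fold for genes with a mean of at least 10 CPM, a zone at 1.5-fold in both libraries, and a class at 2-fold in both libraries with at least 10 UMIs and at least 20 barcodes in 1 of the libraries. No ratio was given where both counts were 3 or fewer, and a count of 0 allows 3 UMIs. Zones were 3 equal parts of each library by the mean z-score of landmarks. Free RNA was estimated from barcodes of no other class below 2 times the commonest depth (2530 UMIs in WT and 810 in HKO). Coordinates are from GENCODE M21 and matched all 85 members.

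Named genes were the 15 most abundant members, the 6 highest and 6 lowest genotype and zone ratios, members called in a class, and members of the lists by regulator, substrate and sex with at least 10 UMIs. Of the electron donor and heme list and the regulator list, the 2 highest and 2 lowest ratios were named, and *Por*, *Nr1i2* and *Nr1i3* were added after their values had been seen. The members and lists were chosen with earlier results of these data known. Scripts were tested on simulated data, with Python 3.11.15, numpy 2.4.6, scipy 1.17.1 and pandas 2.3.3.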

Additional observations from a re-analysis of the deposited data

Results flagged for a closer look

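*Cyp2d10*, of the 2d drug-oxidizing enzymes, had zone ratios on opposite sides of 1 in the 2 libraries. Its pericentral to periportal ratio was 1.11 in WT (95% CI 1.08 to 1.15) and 0.885 in *HKO* (0.834 to 0.938). In WT it was at 391, 546 and 435 CPM in the periportal, middle and pericentral zones, and in *HKO* at 329, 326 and 291. Neither ratio reached 1.5-fold, and with 1 library per genotype the difference was not tested.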

How the results depend on the processing

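No paired analysis was possible because each genotype had 1 library. No value past its limit changed direction under any alternative run. The count of members at least 1.5-fold lower in *HKO*, 4 as reported, was 2 with barcodes weighted equally, 7 with genes of at least 1 CPM and 9 as the mean over the zones. The limit of 1 CPM takes in more members than the 34 compared. The count of higher members stayed between 3 and 5, that of pericentral members between 12 and 14, and that of periportal members between 3 and 5. Matching counts over all genes are not given for these settings. *Cyp2c70* (0.355 to 0.382), *Cyp39a1*, *Cyp3a11*, *Cyp3a59* and *Cyp17a1* were past 1.5-fold in all 9 alternatives that gave a value for single genes, and *Cyp2j6* in 8. As the mean over the zones, *Cyp2c38* was at 0.727, *Cyp2c29* at 0.612 and *Cyp2c50* at 0.363 times WT, as their periportal ratios then count as much as their pericentral ones. Calls in nonhepatocyte classes numbered 25 after subtraction of hepatocyte RNA, 25 with doublets kept and 19 without the barcode with the most UMIs of the gene, where 5 of the 7 members were still called. With doublets kept the 25 were not all the reported ones, as the mixed endothelial- and stellate-like class was not formed and *Cyp26b1* was not called in T- and NK-like barcodes. The limit of 10 CPM, rather than depth, kept out the 25 of the 51 uncompared members with at least 10 hepatocyte-like UMIs. Depth limits the small classes.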
